A study of Mus musculus with 22 samples.

Results

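Endosomal Toll-like receptors (TLRs) and their chaperone were followed through the dendritic cell subsets of spleen and mesenteric lymph nodes (MLN). The members were taken by name from the table of read counts: Tlr3, Tlr7, Tlr8, Tlr9, Tlr11, Tlr12, Tlr13 and Unc93b1, 8 of the 34047 genes listed. At these 8 genes and within 10000 bases of them lay 70 of the 177956 accessible windows of the chromatin data, in 34 peaks. All mice carried a reporter of Tbx21, which encodes T-bet, in which an RFP-cre cassette marks cells with T-bet on (Tbx21 RFP-cre). They were untreated mice of both sexes, 6 to 10 weeks old, so no group had a challenge of its own, and a red cell is one in which the reporter was on at the sort. Cells without lineage markers (among them CD3, CD90, CD64 and Ly6C) and with CD11c and MHC class II were sorted into 3 subsets. These were conventional type 1 dendritic cells (cDC1; XCR1+ CD11b-), RFP+ type 2 cells (T-bet+ cDC2; CD11b+ XCR1-) and RFP- type 2 cells (T-bet- cDC2). RNA-seq libraries, each from 2 pooled mice, numbered 3 of each subset in spleen, and 3 of cDC1s, 2 of T-bet- cDC2s and 2 of T-bet+ cDC2s in MLN. ATAC-seq, which measures open chromatin, covered the spleen alone with 2 libraries of each subset.

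Toll-like receptors of this group sit in endosomes, where they meet nucleic acids or microbial proteins that a cell has taken up. UNC93B1 binds them in the endoplasmic reticulum and carries them to endosomes, where proteases trim their ectodomains before they signal. TLR3 binds double-stranded RNA and signals through TRIF. The others use MYD88: TLR7 and TLR8 respond to single-stranded RNA and its breakdown products, TLR9 to unmethylated CpG DNA, TLR13 to bacterial ribosomal RNA, and TLR11 and TLR12 to profilin of protozoan parasites. In mice, cDC1s are known for TLR3 and for the profilin receptors, and cDC2s for TLR7.

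Sequences of called windows at 7 of the members are shown first, from the GRCm38 (mm10) RefSeq sequence, 5′ to 3′ on the strand of each gene. Distances are in bases from the outermost annotated start of the gene, negative upstream. Capitals mark matches to the motifs described with the chromatin data, and a sequence wholly in lower case held none. For Tlr11 (chr14:50357914-50363663 (+)) the windows 7391 and 669 bases upstream (chr14:50350449-50350598 and chr14:50357171-50357320) are given because they were open in cDC1s (the farther one is nearer to Olfr735, an olfactory receptor gene), and for Tlr12 (chr4:128615443-128618619 (-)) the one 2960 bases upstream (chr4:128621505-128621654).
Tlr11 -7391: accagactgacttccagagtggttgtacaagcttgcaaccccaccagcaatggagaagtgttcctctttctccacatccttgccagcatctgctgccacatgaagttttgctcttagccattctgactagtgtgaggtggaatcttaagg
Tlr11 -669: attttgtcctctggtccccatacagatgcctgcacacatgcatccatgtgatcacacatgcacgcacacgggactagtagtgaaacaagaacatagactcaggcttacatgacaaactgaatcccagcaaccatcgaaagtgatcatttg
Tlr12 -2960: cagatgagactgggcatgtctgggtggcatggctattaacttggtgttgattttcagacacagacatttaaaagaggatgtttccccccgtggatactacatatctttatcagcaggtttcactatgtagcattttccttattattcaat
For Tlr3 (chr8:45395665-45411080 (-)) only the 45 bases upstream of the outermost start within its start window are printed (chr8:45411081-45411125). That window was less open in both cDC2 subsets than in cDC1s.
Tlr3 start, upstream bases: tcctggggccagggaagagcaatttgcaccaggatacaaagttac
For the X-linked neighbours Tlr7 (chrX:167304929-167330558 (-)) and Tlr8 (chrX:167242696-167264329 (-)) an intronic window of each is shown (chrX:167319301-167319450 and chrX:167262516-167262665), the first open in both cDC2 subsets and the second in T-bet- cDC2s.
Tlr7 11183: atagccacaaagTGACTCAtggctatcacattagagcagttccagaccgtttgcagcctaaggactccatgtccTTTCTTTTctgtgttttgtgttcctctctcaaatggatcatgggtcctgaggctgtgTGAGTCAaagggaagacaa
Tlr8 1739: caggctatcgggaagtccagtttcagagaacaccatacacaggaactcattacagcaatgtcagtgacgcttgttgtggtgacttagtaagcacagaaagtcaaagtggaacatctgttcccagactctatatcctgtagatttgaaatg
For Tlr9 (chr9:106222598-106226883 (+)) and Tlr13 (chrX:106143204-106160493 (+)) the bases upstream of the start within the start window are shown (chr9:106222485-106222597 and chrX:106143096-106143203), as both windows were more open in both cDC2 subsets than in cDC1s. Unc93b1 lies at chr19:3935186-3949340 (+).
Tlr9 start, upstream bases: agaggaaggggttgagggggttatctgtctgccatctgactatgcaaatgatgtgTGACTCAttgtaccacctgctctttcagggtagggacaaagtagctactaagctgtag
Tlr13 start, upstream bases: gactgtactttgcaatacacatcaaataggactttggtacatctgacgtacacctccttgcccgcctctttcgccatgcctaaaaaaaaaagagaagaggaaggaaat

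RNA libraries held 20993220 to 29006549 counts on genes and ATAC libraries 7270164 to 10081555 counts in windows. Levels are counts per 1000000 (CPM) on library sizes scaled by TMM, and differences are log2 fold changes ± SE from edgeR's quasi-likelihood test. Adjusted p is Benjamini-Hochberg over all genes or windows tested. An RNA call is an adjusted p under 0.05. Tbx21 was at 23.1, 24.9 and 17.2 CPM in splenic T-bet+ cDC2s and at 0.289, 1.54 and 2.38 CPM in splenic T-bet- cDC2s. In MLN it was at 7.19 and 2.93 CPM and 0.538 and 0.918 CPM in the same order, so the order of the labels held in both tissues while the MLN gap was narrower. Of the 2 MLN T-bet+ libraries, replicate 2 had the lower Tbx21. Its cDC1 markers Xcr1 and Clec9a were at 4.54% and 6.97% of the MLN cDC1 mean, against 0.69% and 0.21% in replicate 1. Of the 8 cDC1 markers only Wdfy4 was lower in replicate 2, at 17.97% against 51.1% in replicate 1. The sum of the 8 was also lower there, at 729 CPM against 836 CPM, so the cDC1 markers did not all point the same way. Markers of other cells that carry these receptors differed between the subsets. The 12 markers of monocytes and macrophages summed to 8566 to 12986 CPM in splenic T-bet- cDC2s, 1104 to 1312 CPM in T-bet+ cDC2s and 1151 to 1714 CPM in cDC1s. In MLN the same sums were 8509.7 to 13308, 974 to 1276 and 534 to 682 CPM. In T-bet- cDC2s most of this was Lyz2, the lysozyme gene: the other 11 summed to 1790.1 to 2369, 932 to 1061 and 313 to 471 CPM in spleen and 1682 to 2759, 536 to 738 and 276 to 322 CPM in MLN, in the same order, with T-bet+ cDC2s above cDC1s in both tissues. The 10 plasmacytoid cell markers, of a cell known for Tlr7 and Tlr9, summed to 264 to 308 CPM in splenic T-bet- cDC2s, 196 to 229.8 CPM in T-bet+ cDC2s and 121 to 152 CPM in cDC1s, without overlap. In MLN these sums were 620.4 to 714, 376 to 530.2 and 229 to 492 CPM, with T-bet- cDC2s above both other subsets. The part of other cells in the results was not tested. In bulk RNA, fewer cells that carry a transcript and less of it per cell cannot be told apart.

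The endosomal receptors fell into a cDC1 set, a cDC2 set and a set common to all subsets. Tlr3, Tlr11 and Tlr12 were highest in cDC1s in both tissues, Tlr7 was high in both cDC2 subsets and close to absent in cDC1s, and Tlr8 was high in T-bet- cDC2s alone. Tlr13 and Unc93b1 were transcribed by all 3 subsets, and Tlr9 was low throughout. Within cDC2s of the spleen, Tlr3, Tlr8, Tlr11 and Tlr12 were lower in T-bet+ than in T-bet- cells. That is 4 of 8 members called lower and none higher, where 5.38% of the 14377 genes tested were called, and the median log2 fold change was -1.43 over members and -0.01 over all genes. Splenic T-bet+ cDC2s against cDC1s gave 1 member higher and 3 lower (all genes called, 18.2%). T-bet- cDC2s against cDC1s gave 2 higher and 3 lower (15.9%). In MLN no member was called between T-bet+ and T-bet- cDC2s, where edgeR called 0% of 15298 genes, that is none, although 1444 genes had an unadjusted p under 0.05. DESeq2 called 2 members there, and its share over all genes is not given here. MLN T-bet+ cDC2s against cDC1s gave 1 member higher and 2 lower (6.22%), and T-bet- cDC2s against cDC1s gave 2 higher and 1 lower (5.79%).

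**Figure D1:**
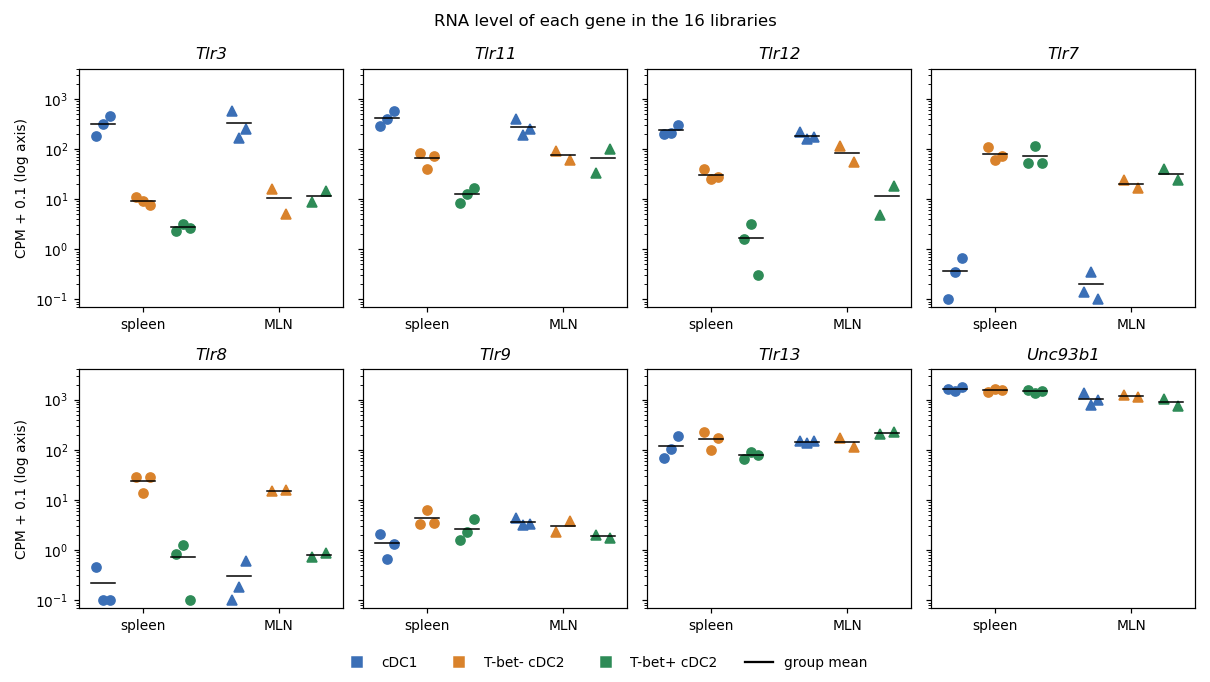
Level of each of the 8 members in the 16 RNA libraries, as CPM + 0.1 on a log axis. Circles are spleen libraries, triangles MLN libraries and bars group means. Tlr3, Tlr11 and Tlr12 are highest in cDC1s, Tlr7 in both cDC2 subsets and Tlr8 in T-bet- cDC2s, while Unc93b1 stays between 756 and 1784 CPM.

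Tlr3, the receptor for double-stranded RNA, was nearly restricted to cDC1s. In spleen the cDC1 libraries held 178, 317 and 444 CPM, the T-bet- cDC2 libraries 10.9, 8.94 and 7.44 CPM and the T-bet+ cDC2 libraries 2.22, 3.15 and 2.53 CPM. The 3 ranges did not overlap, and every T-bet+ library lay below every T-bet- library. Relative to cDC1s the log2 fold change was -5.11 ± 0.38 in T-bet- cDC2s (adjusted p = 2.5e-05, edgeR) and -6.89 ± 0.42 in T-bet+ cDC2s (adjusted p = 6.6e-06). Between the cDC2 subsets it was -1.78 ± 0.34 (adjusted p = 0.0172). This last call was lost in 5 of the 9 fits that left out 1 library, those without a T-bet+ replicate (1, 2 or 3) or without T-bet- replicate 1 or 2, with adjusted p of 0.0545 to 0.0859. In MLN the levels were 563, 164 and 249 CPM in cDC1s, 15.7 and 4.86 CPM in T-bet- cDC2s and 8.77 and 14.3 CPM in T-bet+ cDC2s. There the 2 cDC2 subsets overlapped, and both lay far below cDC1s, with -4.92 ± 0.82 (adjusted p = 0.0137) and -4.81 ± 0.81 (adjusted p = 0.0146). With 2 libraries a group these MLN calls needed both: the adjusted p was 0.0624 and 0.0995 without T-bet- replicates 1 and 2, and 0.0964 without T-bet+ replicate 1. An antisense gene, Gm45542, overlaps Tlr3, and without strand in the counting the 2 cannot be told apart.

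Tlr11, a receptor for profilin, was graded over the 3 splenic subsets. It was at 281, 404 and 564 CPM in cDC1s, 83.96, 40.4 and 71.6 CPM in T-bet- cDC2s and 8.36, 12.6 and 16.7 CPM in T-bet+ cDC2s. No ranges overlapped, so cDC1s, T-bet- and T-bet+ cDC2s stood in this order in every library. The log2 fold change over cDC1s was -2.67 ± 0.39 in T-bet- cDC2s (edgeR adjusted p = 0.00128) and -5.05 ± 0.43 in T-bet+ cDC2s (adjusted p = 5.0e-05), and between the cDC2 subsets -2.38 ± 0.38 (adjusted p = 0.00785). All 3 calls held in each of the 9 fits that left out 1 library. In MLN the order was blurred, with 399, 188 and 248 CPM in cDC1s, 89.7 and 61.1 CPM in the T-bet- and 32.5 and 98.1 CPM in the T-bet+ subset. The high T-bet+ value is that of replicate 2, the library with more Xcr1 and Clec9a but less Wdfy4. Over cDC1s the MLN values missed the threshold, at -1.83 ± 0.56 for T-bet- (adjusted p = 0.11) and -2.07 ± 0.57 for T-bet+ cDC2s (adjusted p = 0.074). Without MLN T-bet+ replicate 2 both passed, at -1.84 (adjusted p = 0.0416) and -3.07 (adjusted p = 0.0279), and without T-bet+ replicate 1 the T-bet- value passed as well (adjusted p = 0.043).

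Tlr12, the partner of TLR11 in profilin sensing, followed the same order with a steeper step between the cDC2 subsets. Splenic cDC1s held 201, 207 and 301 CPM, T-bet- cDC2s 39.7, 25.1 and 27.1 CPM and T-bet+ cDC2s 1.47, 3.08 and 0.208 CPM, again without overlap. The splenic T-bet+ libraries rested on 5 to 82 reads, so the size of a fold change against them depends on the prior count of the fit. T-bet+ against T-bet- cDC2s gave -4.26 ± 0.70 (edgeR adjusted p = 0.00831, 0.0523 without T-bet+ replicate 1). Over cDC1s the difference was -2.95 ± 0.64 in T-bet- cDC2s (adjusted p = 0.0126, 0.0543 without T-bet- replicate 2) and -7.21 ± 0.79 in T-bet+ cDC2s (adjusted p = 0.000233). In MLN, both T-bet- libraries lay below all cDC1 libraries, with 114 and 55.2 CPM against 215, 154 and 171 CPM. The log2 difference of -1.02 ± 0.57 missed the threshold (edgeR adjusted p = 0.382), with 2 SE limits of -2.16 to 0.11. MLN T-bet+ cDC2s held 4.74 and 18.05 CPM and were lower than cDC1s, at -3.96 ± 0.66 (adjusted p = 0.0138). Against MLN T-bet- cDC2s the value was -2.93 ± 0.65, with an unadjusted p of 0.00201 and an adjusted p of 0.255. Tlr12 is in the list of T-bet- cDC2 genes that the study chose on these libraries, so its place among the calls between the cDC2 subsets is not independent evidence.

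The cDC1 receptors were not silent in cDC2s, and their levels there were set beside other genes that mark cDC1s, each as a share of its cDC1 mean. In splenic T-bet- cDC2s Tlr11 was at 20.2, 9.69 and 17.2% and Tlr12 at 16.8, 10.6 and 11.5% of the splenic cDC1 mean, while Tlr3 was at 3.48, 2.86 and 2.38%. In those libraries the chemokine receptor gene Xcr1 was at 1.35, 0.745 and 1.08%, Clec9a, a receptor for dead cells, at 5.1, 1.08 and 4.396% and the adhesion gene Cadm1 at 1.74, 1.99 and 6.14%. Itgae, an integrin gene, was at 0.699, 0.0585 and 0.462% and Naaa, a lysosomal amidase gene, at 3.05, 3.38 and 5.34%. Tlr11 and Tlr12 exceeded these 5 markers in each of the 3 libraries. The remaining 3 of the 8 cDC1 markers were higher in these cells: the transcription factor genes Batf3 and Irf8 were at 28.3, 59.6 and 68.3% and 4.33, 7.22 and 12.7%, and Wdfy4, which cDC1s need for cross-presentation, at 26.1, 17.2 and 7.59%. Batf3 lay above both receptors in every library, Wdfy4 above both in 2 of 3 libraries and Irf8 above Tlr12 in 1, so Tlr11 and Tlr12 did not stand above the marker list as a whole. In MLN T-bet- cDC2s Tlr11 was at 32.2 and 21.9% and Tlr12 at 63.1 and 30.6% of the MLN cDC1 mean, against 0.962 and 1.02% for Xcr1, 2.302 and 1.95% for Clec9a, 9.45 and 17.7% for Irf8, 18.6 and 20.1% for Wdfy4 and 77.4 and 138% for Batf3. Splenic T-bet+ cDC2s had 2.01, 3.04 and 3.999% for Tlr11, 0.621, 1.302 and 0.0879% for Tlr12 and 0.709, 1.01 and 0.809% for Tlr3. In MLN T-bet+ cDC2s Tlr11 was at 11.7 and 35.2%, Tlr12 at 2.63 and 10.01% and Tlr3 at 2.697 and 4.399%, and Clec9a at 0.2097 and 6.97%. Replicate 2 was the higher for each of these 4 genes.

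**Figure D2:**
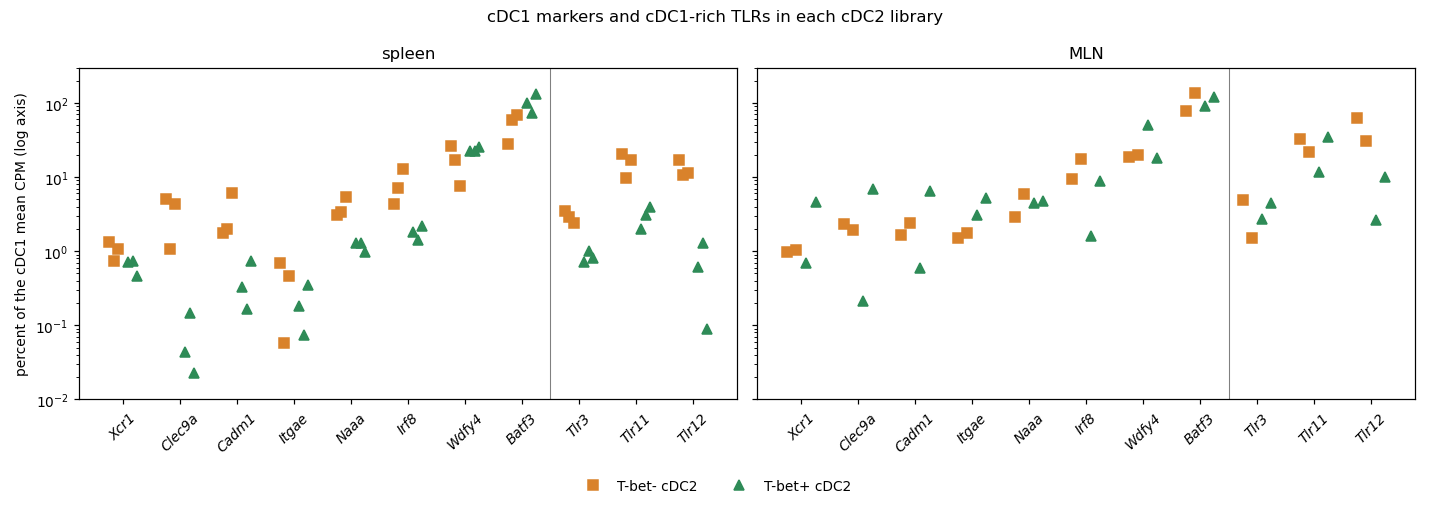
Level of Tlr3, Tlr11 and Tlr12 and of the 8 cDC1 markers in each cDC2 library, as a percent of the mean CPM of the cDC1 libraries of the same tissue (log axis). In T-bet- cDC2s Tlr11 and Tlr12 lie between 9.69% and 63.1%. Of the markers, Xcr1, Clec9a, Cadm1, Itgae and Naaa lie there between 0.0585% and 6.14%, while Irf8 at 4.33% to 17.7%, Wdfy4 at 7.59% to 26.1% and Batf3 at 28.3% to 138% overlap or exceed the receptors.

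Tlr7, the best known receptor of cDC2s for single-stranded RNA, had the opposite distribution. It was at 108, 60.8 and 73.2 CPM in splenic T-bet- cDC2s and at 52.7, 113 and 52.8 CPM in T-bet+ cDC2s. In splenic cDC1s only 0 to 12 reads a library fell on it, which is 0, 0.247 and 0.5803 CPM. The log2 fold change over cDC1s was 8.21 ± 0.86 in T-bet- cDC2s (edgeR adjusted p = 0.000179) and 8.07 ± 0.85 in T-bet+ cDC2s (adjusted p = 0.000185), and both sizes depend on the prior count. Between the cDC2 subsets the ranges overlapped, and the difference of -0.14 ± 0.59 (adjusted p = 0.922) had 2 SE limits of -1.33 to 1.04. The pattern was the same in MLN, with 23.8 and 16.3 CPM in T-bet- cDC2s, 38.99 and 24.3 CPM in T-bet+ cDC2s and 0.0406, 0.2602 and 0 CPM in cDC1s. Over cDC1s this gave 7.73 ± 0.79 (adjusted p = 0.00199) and 8.34 ± 0.80 (adjusted p = 0.00163), calls that held in each of the 7 fits with 1 MLN library left out.

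Tlr8 lies next to Tlr7 on chromosome X, but its transcript marked T-bet- cDC2s alone. Splenic T-bet- cDC2s held 28.6, 13.4 and 28.2 CPM, against 0.753, 1.16 and 0 CPM in T-bet+ cDC2s and 0.365, 0 and 0 CPM in cDC1s. T-bet- libraries lay above all others, and the remaining 2 subsets overlapped at or near 0. T-bet- cDC2s exceeded cDC1s by 7.47 ± 1.36 (edgeR adjusted p = 0.00498). T-bet+ cDC2s lay below T-bet- cDC2s, at -5.17 ± 1.17 (adjusted p = 0.0335). This second call was lost in 5 of 9 fits, those without a T-bet+ replicate (1, 2 or 3) or without T-bet- replicate 1 or 2, with adjusted p of 0.0551 to 0.133. In MLN the T-bet- libraries held 14.9 and 15.6 CPM, the T-bet+ libraries 0.6398 and 0.771 CPM and the cDC1 libraries 0, 0.0867 and 0.5099 CPM, so the same separation stood in 7 libraries the splenic comparison did not use. MLN T-bet- cDC2s exceeded cDC1s by 6.26 ± 0.92 (adjusted p = 0.00863, 0.0737 and 0.071 without T-bet- replicates 1 and 2). Between the MLN cDC2 subsets the value was -4.46 ± 0.97, with an unadjusted p of 0.00181 and an adjusted p of 0.252. Tlr8 too is in the T-bet- list that the study drew up on these libraries of both tissues. Neither its splenic nor its MLN separation is therefore independent evidence. T-bet- cDC2s, where Tlr8 was high, also had the highest sums of monocyte and macrophage markers in both tissues. Among these markers C1qa, a complement gene of tissue macrophages, was at 206, 202 and 136 CPM in splenic and 549.6 and 296 CPM in MLN T-bet- cDC2s. Fcgr1, which encodes the CD64 excluded by the sort, was at 7.85, 7.92 and 5.36 CPM and 13.3 and 6.39 CPM. C1qa was higher in MLN than in splenic T-bet- cDC2s. Tlr8 in spleen over MLN was 0.62 ± 1.06 in this subset (edgeR adjusted p = 0.749). Without Lyz2, the markers summed to 1790 to 2369 CPM in splenic T-bet- cDC2s, 932 to 1061 CPM in T-bet+ cDC2s and 313 to 471 CPM in cDC1s. Whether these transcripts and Tlr8 share cells was not tested.

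Tlr13, a receptor for bacterial ribosomal RNA, was shared by the subsets. In spleen it was at 67.2, 105 and 186 CPM in cDC1s, 228, 98.7 and 175 CPM in T-bet- cDC2s and 66.1, 91.1 and 79.4 CPM in T-bet+ cDC2s, and the cDC1 range overlapped that of each cDC2 subset while the T-bet+ libraries all lay below the T-bet- ones. None of the 3 splenic comparisons was called, and the value between the cDC2 subsets, -1.08 ± 0.40, had an unadjusted p of 0.0238 and an adjusted p of 0.181 (edgeR). In MLN the order turned: T-bet+ cDC2s held 206 and 225 CPM, above 168 and 113 CPM in T-bet- cDC2s and 151, 134 and 148 CPM in cDC1s. No MLN comparison was called, and T-bet+ against T-bet- cDC2s gave 0.58 ± 0.30 (adjusted p = 0.618).

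Tlr9, the receptor for CpG DNA, was near the detection limit of these libraries in every subset, with 14 to 121 reads a library. Splenic levels were 1.98, 0.576 and 1.21 CPM in cDC1s, 3.23, 6.22 and 3.399 CPM in T-bet- cDC2s and 1.51, 2.25 and 4.03 CPM in T-bet+ cDC2s. MLN levels were 4.34, 3.08 and 3.24, 2.22 and 3.75 and 1.92 and 1.62 CPM in the same order. Splenic T-bet- cDC2s lay above all splenic cDC1 libraries, at 1.76 ± 0.57 with an edgeR adjusted p of 0.068, and no comparison of Tlr9 passed the threshold.

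Unc93b1, the chaperone that all of these receptors need, was the most even member. It was at 1592, 1453 and 1784 CPM in splenic cDC1s, 1423, 1662 and 1543 CPM in T-bet- cDC2s and 1563, 1377 and 1484 CPM in T-bet+ cDC2s. The 3 splenic ranges overlapped. Between the cDC2 subsets the log2 difference was -0.063 ± 0.15, with 2 SE limits of -0.36 to 0.23, and over cDC1s -0.061 ± 0.15 and -0.12 ± 0.15. The 2 SE limits over cDC1s were -0.36 to 0.23 and -0.42 to 0.17. In MLN cDC1s held 1350.4, 773 and 986 CPM, T-bet- cDC2s 1235 and 1122 CPM and T-bet+ cDC2s 1021 and 756 CPM, and no comparison between subsets was called. T-bet+ cDC2s and cDC1s of the spleen, apart by -6.89 ± 0.42 in Tlr3, showed no detectable difference in this chaperone.

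Levels can be set side by side between genes only per length of transcript, as RPKM, which divides CPM by the exon length in kilobases. On that scale splenic cDC1s were led by Tlr11 (127 ± 43.3 RPKM, SD, n = 3), Tlr12 (74.3 ± 17.6) and Tlr3 (60.1 ± 25.5), followed by Tlr13 (27.7 ± 14.2). Splenic T-bet- cDC2s had Tlr13 at 38.9 ± 15.1, Tlr11 at 19.95 ± 6.87, Tlr7 at 19.7 ± 5.97, Tlr12 at 9.64 ± 2.49 and Tlr8 at 6.52 ± 2.41 RPKM. Splenic T-bet+ cDC2s were left with Tlr13 at 18.3 ± 2.903, Tlr7 at 17.8 ± 8.48 and Tlr11 at 3.83 ± 1.27 RPKM, and each of the other receptors was under 1 RPKM. At a cut of 5 RPKM, picked after the values were seen, T-bet- cDC2s had 5 receptors, cDC1s 4 and T-bet+ cDC2s 2. Unc93b1 was at 531, 509 and 487 RPKM in splenic cDC1s, in the T-bet- and in the T-bet+ subset. In MLN the mean RPKM of Tlr12 was 56.8 in cDC1s, 26.6 in the T-bet- and 3.59 in the T-bet+ subset, and that of Tlr13 was 33.5, 32.7 and 50.1.

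**Figure D3:**
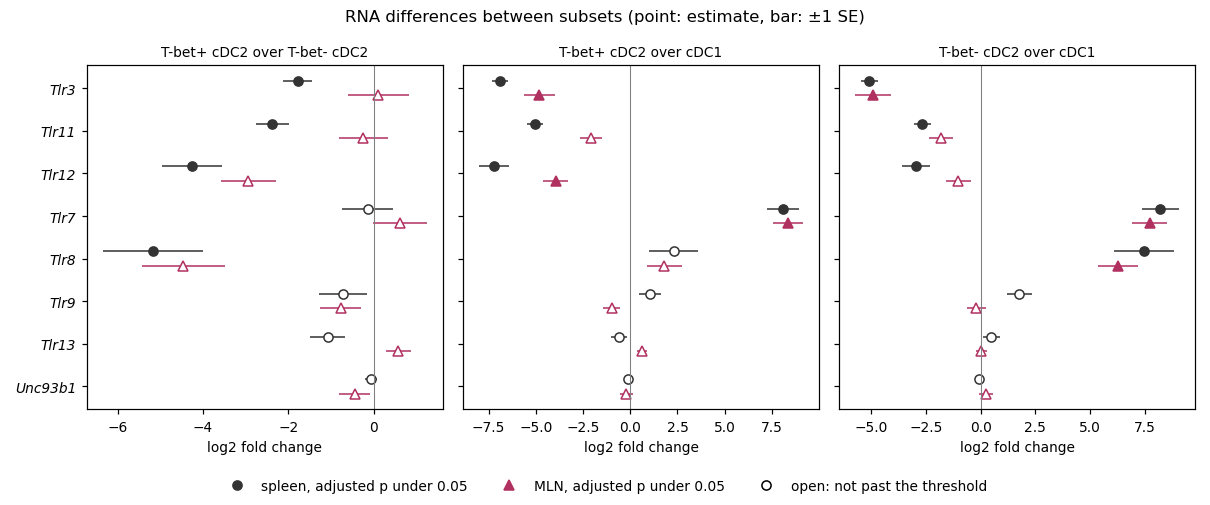
Log2 fold change ± 1 SE of each member in the RNA comparisons, with filled points for an edgeR adjusted p under 0.05. In spleen T-bet+ against T-bet- cDC2s, the filled points are Tlr3, Tlr8, Tlr11 and Tlr12, all below 0.

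Spleen was then set against MLN within each subset, the libraries of 1 tissue against those of the other. In T-bet+ cDC2s the 3 cDC1 receptors and Tlr13 were lower in spleen: 4 of 8 members, where 5.09% of 16795 genes were called. The log2 differences were -2.38 ± 0.48 for Tlr11 (edgeR adjusted p = 0.0154), -2.83 ± 0.69 for Tlr12 (0.0331), -2.13 ± 0.55 for Tlr3 (0.0408) and -1.45 ± 0.38 for Tlr13 (0.0442). For each of these genes both MLN libraries exceeded all 3 splenic ones. These calls rested on single libraries. Without MLN T-bet+ replicate 2 none of the 4 was called, at -1.36 for Tlr11, -1.56 for Tlr12, -1.72 for Tlr3 and -1.38 for Tlr13, and without splenic T-bet+ replicate 1 none was either. The count was 1 without splenic T-bet+ replicate 2 (Tlr12), without replicate 3 (Tlr11) or without splenic cDC1 replicate 2 (Tlr11), and 2 without MLN cDC1 replicate 3 (Tlr11 and Tlr12). Libraries also fell into 2 classes by how their deviations from the mean of their own tissue followed the GC content of transcripts. All 3 splenic but neither MLN T-bet+ library were in the higher class of their tissue. With this class as a term the count was 0. Since the class was set within each tissue, its labels in spleen and MLN are not on a common scale. The count of 0 therefore does not show that tissue and GC class go together, and the cause was not tested.

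In cDC1s no member was called between the tissues (11.7% of genes called). Unc93b1 had 0.64 ± 0.21 (adjusted p = 0.0607; 0.94 and 0.00643 without MLN cDC1 replicate 1) and Tlr9 -1.50 ± 0.50 (adjusted p = 0.0657). All splenic cDC1 libraries lay above all MLN ones for Unc93b1 and below them for Tlr9. In T-bet- cDC2s none was called either (5.95%), and the widest gaps were Tlr7, with 2.01 ± 0.71 (adjusted p = 0.109), and Tlr12, with -1.46 ± 0.65 (adjusted p = 0.185). Tlr7 was higher in all 3 splenic T-bet- libraries than in both MLN ones, and Tlr12 lower. Tlr7 was also 1.2 ± 0.69 in T-bet+ cDC2s (adjusted p = 0.275), not called, with every splenic library above every MLN library. Whether the gap between subsets itself differed between tissues was tested as an interaction. No member passed, where 0.00595% of genes passed for T-bet+ against T-bet- cDC2s, 0.0893% for T-bet+ cDC2s against cDC1s and 0.0357% for T-bet- cDC2s against cDC1s. Nearest was Tlr11 in T-bet+ cDC2s against cDC1s, -2.96 ± 0.65 with an unadjusted p of 0.00043 and an adjusted p of 0.108, which passed without MLN T-bet+ replicate 1 (0.0199) or MLN cDC1 replicate 1 (0.0462). The loss of a call between the cDC2 subsets in MLN is therefore not shown to be a difference from spleen.

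Chromatin at these genes was compared in the splenic libraries, as CPM in windows of 150 bases around the summits of accessibility. A window was called at an adjusted p under 0.01 with a log2 change of more than 0.5. Of the 70 windows at the member genes, 14 had their centre in an exon, 23 in an intron and 33 outside the genes. Between T-bet+ and T-bet- cDC2s 5 were called, 3 higher and 2 lower in T-bet+ cells (all windows, 6.28%). T-bet+ cDC2s against cDC1s gave 26, 12 higher and 14 lower (all windows, 23.0%), and T-bet- cDC2s against cDC1s 28, 12 higher and 16 lower (all windows, 17.9%). With scaling by library size alone the splits were 2 higher and 2 lower, 9 and 17, and 10 and 19, and the median of all windows moved to -0.10, -0.18 and -0.08 log2 units. The directions were not mixed within a gene: the called windows of Tlr3, Tlr11, Tlr12 and Unc93b1 were all less open in cDC2s than in cDC1s, and those of Tlr7, Tlr8, Tlr9 and Tlr13 all more open, on this TMM scale. No window described below changed direction under another scaling. In the fits with 1 library left out these counts ranged from 2 to 5, 17 to 26 and 18 to 32. The lowest came without T-bet- replicate 1, except for T-bet+ cDC2s against cDC1s, where it came without cDC1 replicate 2.

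**Figure D4:**
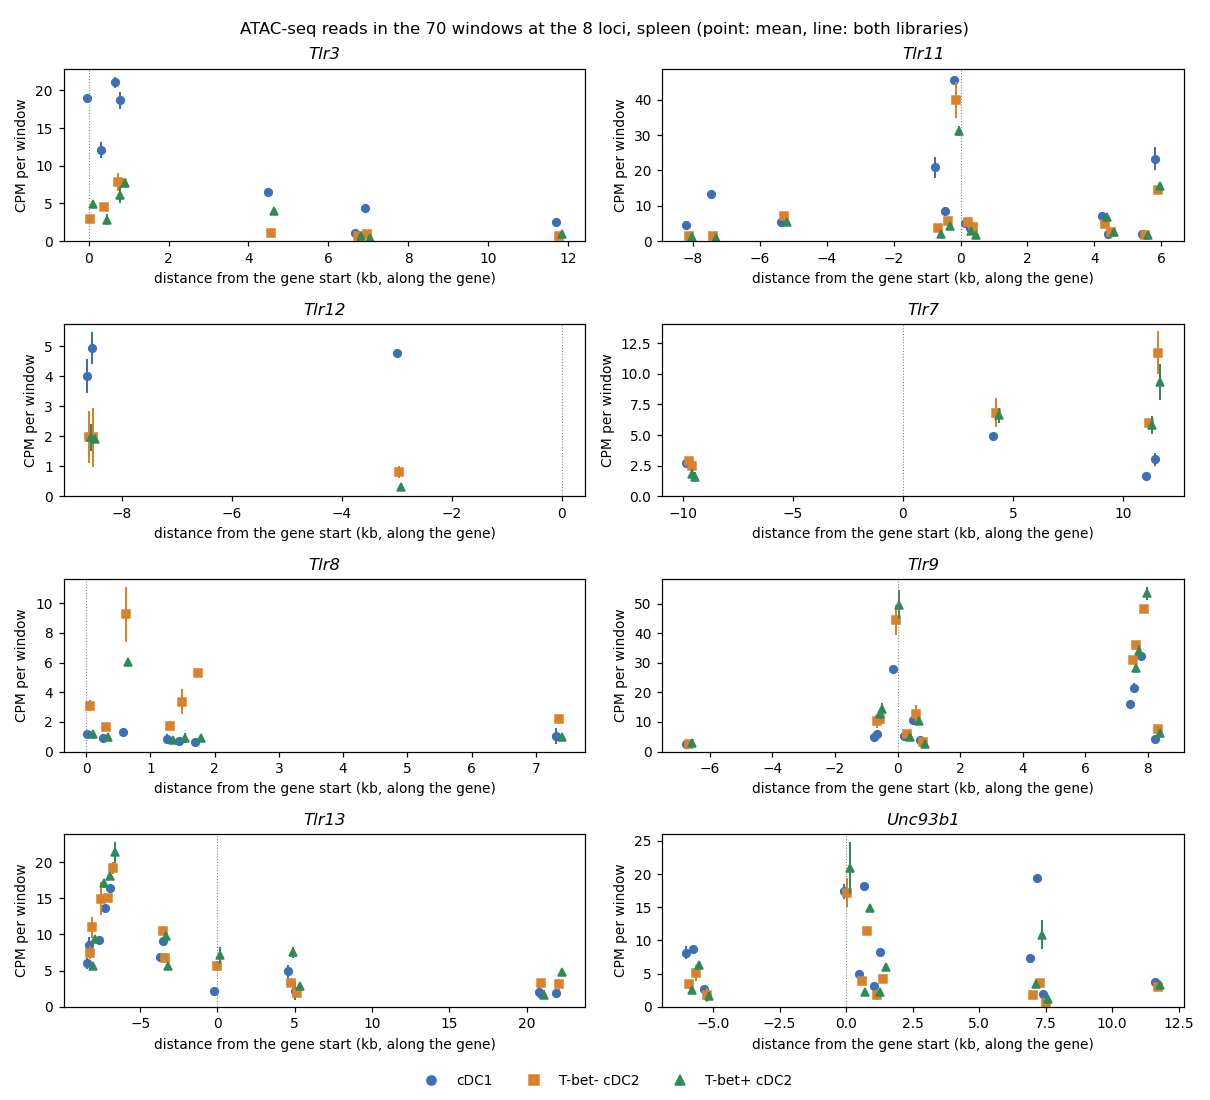
Accessibility of the windows at each member gene in the 3 splenic subsets, as CPM against the distance in kilobases from the gene start. Points are means of 2 libraries, lines join both libraries, and the 3 subsets are set slightly apart sideways. Windows upstream of Tlr11 and Tlr12 are highest in cDC1s, and 2 windows inside Tlr8 in T-bet- cDC2s.

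The cDC1 receptors had windows that were much less open in both cDC2 subsets than in cDC1s. At Tlr11, the window 7391 bases upstream, which is nearest to Olfr735 and so not attributable to Tlr11, held 13.2 and 13.7 CPM in the cDC1 libraries, 1.97 and 1.11 CPM in the T-bet- and 0.979 and 0.627 CPM in the T-bet+ subset. Relative to cDC1s this was -3.14 ± 0.35 (edgeR adjusted p = 3.1e-11) and -4.05 ± 0.39 (adjusted p = 5.5e-14). The window 669 bases upstream held 17.8 and 23.9, 3.45 and 4.25 and 1.63 and 2.61 CPM in the same order, with -2.42 ± 0.27 and -3.28 ± 0.30 over cDC1s. Closer to the start of Tlr11, 122 bases upstream, the subsets converged: 44.5 and 46.5 CPM in cDC1s, 45.1 and 34.9 CPM in the T-bet- and 32.5 and 29.7 CPM in the T-bet+ subset, where T-bet+ cDC2s differed from cDC1s by -0.55 ± 0.17. That last window was picked after its values were seen. At Tlr12, which had no window at its start, the one 2960 bases upstream held 4.87 and 4.702, 0.616 and 1.01 and 0.435 and 0.209 CPM, or -2.51 ± 0.46 and -3.84 ± 0.54 over cDC1s. No window at Tlr11 or Tlr12 was called between the cDC2 subsets, although their transcripts were. At -7391, -669 and -2960 the T-bet+ over T-bet- values were -0.91 ± 0.51, -0.86 ± 0.35 and -1.34 ± 0.71. The farther Tlr12 window, 8516 bases upstream, was called for T-bet+ cDC2s against cDC1s at -1.35 ± 0.40 (adjusted p = 0.00538), a call lost without either T-bet+ or either cDC1 replicate (0.012 to 0.0654).

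At Tlr3, 7 of 8 windows were called in at least 1 comparison, the largest share of any member. The window over its outermost start held 18.8 and 19.2 CPM in cDC1s, 3.21 and 2.73 CPM in the T-bet- and 4.68 and 5.12 CPM in the T-bet+ subset, which is -2.68 ± 0.28 (edgeR adjusted p = 3.6e-12) and -1.95 ± 0.26 (adjusted p = 4.1e-09) over cDC1s. The exonic window 721 bases into the gene held 20.3 and 21.8, 9 and 6.68 and 5.11 and 7.21 CPM. Between the cDC2 subsets 1 of the 8 Tlr3 windows was called, in the direction opposite to the transcript: an intronic window 4571 bases in held 0.7397 and 1.32 CPM in the T-bet- and 4.13 and 3.87 CPM in the T-bet+ subset, 1.92 ± 0.42 (adjusted p = 0.000749), with 6.06 and 7.05 CPM in cDC1s. The other 7 were not called and had both signs, from -1.38 ± 0.68 in an intronic window 6978 bases in to 0.73 ± 0.31 at the start.

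Tlr8 was the member whose accessibility separated the cDC2 subsets as its RNA did. The intronic window 1739 bases from its start held 5.18 and 5.47 CPM in T-bet- cDC2s, 0.8702 and 0.941 CPM in T-bet+ cDC2s and 0.475 and 0.784 CPM in cDC1s. T-bet+ cDC2s lay below T-bet- cDC2s, at -2.54 ± 0.43 (edgeR adjusted p = 1.3e-05), and T-bet- cDC2s above cDC1s by 3.07 ± 0.48 (adjusted p = 4.3e-07). A neighbouring window at 1492 bases had 4.19 and 2.53, 0.544 and 1.25 and 0.475 and 0.914 CPM in that order and -1.86 ± 0.49 between the cDC2 subsets. Nearer the start, at 616 bases, both cDC2 subsets were open: 11.1 and 7.39 CPM and 6.2 and 5.86 CPM, against 1.19 and 1.44 CPM in cDC1s. The T-bet+ value exceeded cDC1s by 2.19 ± 0.38, although Tlr8 RNA was at most 1.16 CPM in splenic T-bet+ cDC2s. The window over the Tlr8 start held 3.45 and 2.73, 0.8702 and 1.46 and 1.07 and 1.31 CPM and was not called in any comparison. At Tlr7, which had no window over its start, the intronic windows 11183 and 11557 bases in were more open in both cDC2 subsets than in cDC1s. The first held 1.78 and 1.57 CPM in cDC1s, 6.04 and 5.97 CPM in the T-bet- and 6.53 and 5.12 CPM in the T-bet+ subset, with 1.83 ± 0.37 and 1.79 ± 0.37 over cDC1s and -0.045 ± 0.31 between the cDC2 subsets.

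Tlr9 was more open in cDC2s, though its RNA was low everywhere. Its start window held 28.03 and 27.7 CPM in cDC1s, 49.6 and 39.3 CPM in the T-bet- and 54.5 and 44.6 CPM in the T-bet+ subset, 0.67 ± 0.17 and 0.83 ± 0.17 over cDC1s. The window 662 bases upstream gave 1.38 ± 0.28 for T-bet+ cDC2s and 1.04 ± 0.28 for T-bet- cDC2s, the second lost without T-bet- replicate 1 (adjusted p = 0.172) or cDC1 replicate 2 (0.0794). A window 7533 bases downstream of the start, nearest to Alas1 and so not attributable to Tlr9, gave 0.96 ± 0.19 and 0.82 ± 0.19, the second lost without cDC1 replicate 2 (0.0116). At Tlr13 the start window rose from 2.495 and 1.83 CPM in cDC1s to 5.05 and 6.28 CPM in the T-bet- and 8.27 and 5.96 CPM in the T-bet+ subset. T-bet+ cDC2s exceeded cDC1s there by 1.70 ± 0.35 (edgeR adjusted p = 6.2e-05), and T-bet- cDC2s by 1.38 ± 0.36 (adjusted p = 0.00192), the second lost without T-bet- replicate 2 (0.0354) or cDC1 replicate 2 (0.0506). An intronic window at 4734 bases was more open in the T-bet+ subset than in T-bet- cDC2s, 1.18 ± 0.32, with 8.27 and 6.796 against 2.84 and 3.75 CPM.

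Unc93b1 was evenly open at its start, with 18.5 and 16.3 CPM in cDC1s, 15.04 and 19.3 CPM in the T-bet- and 24.8 and 17.04 CPM in the T-bet+ subset, and no comparison called. Inside the gene the subsets separated. An exonic window 7272 bases in held 20.1 and 18.8 CPM in cDC1s, 13.1 and 8.68 CPM in T-bet+ and 3.82 and 3.44 CPM in T-bet- cDC2s. T-bet- cDC2s lay below cDC1s, at -2.42 ± 0.27 (edgeR adjusted p = 2.1e-11), and T-bet+ cDC2s lay above T-bet- cDC2s by 1.58 ± 0.28 (adjusted p = 1.8e-05). The smaller gap of T-bet+ cDC2s to cDC1s, -0.84 ± 0.23, was lost without T-bet+ replicate 2 (0.0989), cDC1 replicate 1 (0.0439) or cDC1 replicate 2 (0.0185). These differences stood beside Unc93b1 RNA levels for which no splenic comparison was called. The windows at Tlr3 (4571), Tlr8 (1492) and Tlr13 (4734) were named after their values were seen, since they complete the 5 called between the cDC2 subsets.

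Letters of known motifs were looked for in the windows on both strands. The PU.1/ETS letters GAGGAAGT were in 4 of 70 (5.71%, all windows 5.5%), the IRF letters AANNGAAA in 16 of 70 (22.9%, all windows 16.8%), and the composite ETS-IRF letters GGAANNGAA in 6 of 70 (8.57%, all windows 6.8%). AP-1 letters TGANTCA were in 9 of 70 (12.9%, all windows 7.9%), C/EBP letters TTGCNNAA in 8 of 70 (11.4%, all windows 5.89%) and Runx letters TGTGGTT in 6 of 70 (8.57%, all windows 5.23%). The T-box letters AGGTGTGA, the motif class that T-bet binds, were in none of the 70, and in 0.714% of all windows. An ETS-IRF match can contain or overlap an IRF match. In the sequences above, the Tlr7 window has AP-1 letters at both ends and IRF letters between, and the Tlr9 start has AP-1 letters. The bases of the start windows that are not printed also hold matches, IRF letters at Tlr3 and PU.1/ETS letters at Tlr9. The printed windows of Tlr11, Tlr12 and Tlr8 hold none of the motifs searched. Such matches describe the sequence and do not show binding.

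Genes that work with the endosomal receptors were taken from lists by role. Among 15 measured genes of receptor chaperones and endosomal trafficking, 2 were lower and none higher in splenic T-bet+ than T-bet- cDC2s (median -0.20, all genes -0.013, 5.38% called). One was Rab7b, a GTPase of late endosomal traffic, which was highest in cDC1s: it ranged over 1067 to 1240.3 CPM in splenic cDC1s, 34.3 to 61.2 CPM in the T-bet- and 0.415 to 2.02 CPM in the T-bet+ subset. The differences were -5.21 ± 0.52 between the cDC2 subsets and -4.49 ± 0.49 and -9.70 ± 0.62 over cDC1s, all called in each fit with 1 library left out. The other was Sdcbp, syntenin, at -1.08 ± 0.23, which lost its call in 4 of the 9 fits, those that left out any T-bet+ replicate or T-bet- replicate 1. Like Tlr7, the lysosomal transporter gene Slc15a3 was a cDC2 gene, with 4.28 ± 0.50 in the T-bet- and 3.25 ± 0.48 in the T-bet+ subset over cDC1s. Of the TLR-cleaving proteases, 3 of 6 tested were lower in splenic T-bet+ than T-bet- cDC2s (median -0.99, all genes called 5.38%). The count was 1 when any T-bet+ replicate was left out. The one called in every such fit was Ctss, cathepsin S, at -1.08 ± 0.17, and Lgmn, legumain, was at -1.88 ± 0.33. All 6 were higher in T-bet- cDC2s than in cDC1s (median 2.22, all genes -0.011, 15.9% called), and 4 or 5 with 1 library left out. Among them was Ctsl, cathepsin L, at 2.60 ± 0.35. In T-bet+ cDC2s against cDC1s 3 of 6 were higher (all genes called, 18.2%).

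Lysosomal nucleases and exporters act on the ligands of TLR7 and TLR9. In splenic T-bet+ against T-bet- cDC2s 2 of 7 were lower and none higher (median -0.23, all genes -0.013, 5.38% called): Pld3, an exonuclease, at -2.14 ± 0.28, and Slc29a3, a nucleoside exporter, at -1.74 ± 0.32, the latter lost without T-bet+ replicate 1 or 2. Pld3 was higher in both cDC2 subsets than in cDC1s, by 3.66 ± 0.30 and 1.52 ± 0.28, and Acp5, an acid phosphatase, by 3.43 ± 0.22 and 3.79 ± 0.23. Of 18 adaptors and kinases 2 were lower and none higher in splenic T-bet+ than T-bet- cDC2s (all genes called, 5.38%). These were Ikbke and Ticam1, which encodes the TLR3 adaptor TRIF. Ticam1 was at -1.08 ± 0.25 and lost its call in 7 of 9 fits, all but those without T-bet- replicate 3 or cDC1 replicate 3. Ikbke, a kinase of the interferon branch, had 0 to 0.0375 CPM in the T-bet+ libraries against 1.18 to 4.77 CPM in T-bet- and 0.532 to 2.51 CPM in cDC1 libraries. Myd88, the adaptor of the receptors other than TLR3, was at 167 ± 15.1 CPM (SD, n = 3) in splenic cDC1s, 200.2 ± 9.95 CPM in the T-bet- and 158 ± 6.905 CPM in the T-bet+ subset, with no comparison called. Of 10 transcription factors 1 was called between the splenic cDC2 subsets (all genes called, 5.38%). It was Irf8, which cDC1s depend on, at -2.17 ± 0.37 (lost without T-bet+ replicate 1 or 2). Over cDC1s 1 was higher and 2 lower in each splenic cDC2 subset (all genes called, 15.9% for T-bet- and 18.2% for T-bet+). Nfkb1, a subunit of NF-kappaB, was higher by 2.16 ± 0.18 in the T-bet- and 2.52 ± 0.18 in the T-bet+ subset, and Irf8 was at -3.63 ± 0.39 and -5.80 ± 0.43, all 4 called in each fit with 1 library left out. Irf5, a factor that acts with MYD88, was at -0.67 ± 0.15 and -0.58 ± 0.15, the first lost without T-bet- replicate 1 (adjusted p = 0.0505) and the second when any T-bet+ replicate was left out or cDC1 replicate 1 or 3 (0.0543 to 0.094). Among 10 negative regulators Dok3 was at -2.31 ± 0.43 between the cDC2 subsets, lost when any T-bet+ replicate was left out, and at 4.77 ± 0.49 in T-bet- cDC2s over cDC1s.

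Other receptors of nucleic acids and the Toll-like receptors of the cell surface were counted beside the members. None of the 5 surface receptors (Tlr1, Tlr2, Tlr4, Tlr5 and Tlr6) was called between the splenic cDC2 subsets (median -0.73, and 1 without T-bet- replicate 3), against 4 of the 8 members and 5.38% of all genes. That the 2 counts differ was not tested. Over cDC1s 3 of 5 were higher in each splenic cDC2 subset (all genes called, 15.9% for T-bet- and 18.2% for T-bet+). Tlr5 was higher by 6.87 ± 0.75 and 6.33 ± 0.73, Tlr1 by 4.22 ± 0.32 and 3.60 ± 0.31 and Tlr2 by 2.55 ± 0.31 and 1.58 ± 0.30 in T-bet- and T-bet+ cDC2s. No surface receptor was called lower in either splenic cDC2 subset, while Tlr3, Tlr11 and Tlr12 were. Tlr4 and Tlr6 were not called in either direction, and their values are not given here. Of 10 cytosolic sensors 1 was lower in splenic T-bet+ than T-bet- cDC2s, Ifi204 at -3.58 ± 0.45 (2 without T-bet- replicate 3, all genes called 5.38%). Ddx58, the RNA sensor RIG-I, was higher in both cDC2 subsets than in cDC1s, by 4.46 ± 0.46 and 4.46 ± 0.46, which is the direction of Tlr7 and the reverse of Tlr3. In MLN no gene of any of these lists was called between the cDC2 subsets, where none of the genes tested was. Over MLN cDC1s the calls included Rab7b at -4.17 ± 0.84 in the T-bet- and -5.58 ± 0.91 in the T-bet+ subset, Slc15a3 at 4.12 ± 0.60 and 3.56 ± 0.59 and Ddx58 at 3.11 ± 0.32 and 3.31 ± 0.32. The calls of trafficking genes in MLN T-bet- cDC2s, Rab7b among them, needed both T-bet- libraries. Between tissues, 6 of 10 cytosolic sensors were lower in splenic than in MLN cDC1s, where 11.7% of all genes were called. The count was 2 without MLN cDC1 replicate 2 or 3 or splenic cDC1 replicate 1 or 2. No member was called in that comparison.

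The genes whose log2 levels ran most like those of each member were found by Pearson correlation over the 16 RNA libraries, which share subsets and tissues and so are not independent points. Nearest to Tlr3 were Slc8b1 (r = 0.979), Cd24a (r = 0.979) and Plcb4 (r = 0.978). Nearest to Tlr11 were Gcsam (r = 0.978), Rab32 (r = 0.974) and Ifi205 (r = 0.973) and to Tlr12 Slc12a7 (r = 0.974), Galc (r = 0.965) and Ifi205 (r = 0.961), with Ifi205 common to both. For Tlr7 they were Klra17 (r = 0.985), Sirpb1b (r = 0.985) and Clec4a2 (r = 0.984), of which Klra17 and Clec4a2 encode lectin-like receptors of myeloid cells. Tlr8 had RP24-233B16.6 (r = 0.966), Ptgir (r = 0.958) and Osm (r = 0.922). The even members had Smim15 (r = 0.952), Mbd4 (r = 0.931) and Lypla1 (r = 0.898) for Tlr13 and Fermt3 (r = 0.964), Trp53 (r = 0.931) and Wdr46 (r = 0.923) for Unc93b1. For Tlr9, with the fewest reads, the nearest were Ank2 (r = 0.848), Ulk1 (r = 0.819) and Des (r = 0.784), the lowest correlations of the set.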

How the data were processed

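RNA was measured in 16 libraries and open chromatin in 6. The RNA table holds raw counts per GENCODE vM17 gene, which the authors made with Rsubread from reads placed uniquely on mm10 by HISAT2 (version 2.1.0). Whether that counting used strand is not given in the sources used here. For chromatin the authors deposited counts in summit windows of 150 bases and in whole peaks. Their reads were aligned with Bowtie2 (2.2.5) and shifted for the transposase, and peaks came from a MACS2 run over the replicates combined, of which the reproducible ones were kept. Groups came from the sample labels, in which RFP+ cells are T-bet+. The labels were followed where 1 sentence of the methods has it the other way round.

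Counts were tested with edgeR (4.0.16, R 4.3.3) by the quasi-likelihood F test after TMM scaling and filterByExpr, with p-values adjusted by Benjamini-Hochberg over all features tested. Each fit held the 9 splenic, the 7 MLN, all 16 RNA or the 6 ATAC libraries with the group as the only term. SE is the log2 fold change divided by the root of F. Libraries are the replicates, so p-values measure the spread between these libraries. Positions are from GENCODE M21, which holds 19698 of the 34047 symbols, and sequence from the mm10 RefSeq genome. Of the named windows, only bases outside non-coding exons are printed. Alternatives were DESeq2 (1.42.0), its size factors, other filters on low counts, whole peaks, the libraries compared alone, a replicate block and each library left out. The scripts were tested on simulated data. The members, lists and named windows (at most 2 called windows a member, by adjusted p) were chosen with earlier results of these data known, as were the up to 4 genes named per list and comparison and the 3 most alike genes per member.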

Additional observations from a re-analysis of the deposited data

How the results depend on the processing

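The count of members called between splenic T-bet+ and T-bet- cDC2s, 4, was 2 with at least 10 counts required in every library and 2 with the replicate block, and 1 to 4 with 1 library left out. Requiring 10 counts took members with low counts out of the test, and so also gave 2 for splenic T-bet+ cDC2s over cDC1s (4; 4 to 4 with 1 library left out), 2 for T-bet- cDC2s over cDC1s (5; 4 to 5) and 1 for MLN T-bet- cDC2s over cDC1s (3; 1 to 4), and 1 for cDC1s of spleen over MLN. MLN T-bet+ against T-bet- cDC2s had 0 calls, 2 by DESeq2, 2 with no filter and 1 with only the libraries compared (0 to 0), and MLN T-bet+ cDC2s over cDC1s 2 to 4. Spleen over MLN gave, for cDC1s, 0 calls, 2 by DESeq2, 1 with the edgeR version 4 dispersion and 1 with the library class (0 to 1). For T-bet- cDC2s it gave 0, 1 by DESeq2, 2 with no filter, 1 with the version 4 dispersion and 1 with only the libraries compared (0 to 0). For T-bet+ cDC2s it gave 4, 2 with the block and 0 with the library class (0 to 4). For the differences between tissues no filter gave 2, 3 and 1 members for T-bet+ against T-bet- cDC2s, T-bet+ cDC2s over cDC1s and T-bet- cDC2s over cDC1s, and DESeq2 2 for the second (0 to 0, 0 to 1 and 0 to 0 with 1 library left out). Called windows between the cDC2 subsets were 5, 3 by DESeq2 (2 to 5). They were 26 and 17 with whole peaks for T-bet+ cDC2s over cDC1s (17 to 26), and 28, 18 by DESeq2 and 15 with whole peaks for T-bet- cDC2s over cDC1s (18 to 32). The share of all genes called under each of these settings is not given here, so a changed count need not be particular to the members. The causes were not tested.

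Directions turned only where the difference was near 0. Tlr7 between the splenic cDC2 subsets was 0.26 with the library class (-0.61 to 0.12 with 1 library left out). Unc93b1 there was 0.016 with the library class (-0.15 to 0.0051), and in T-bet- cDC2s over cDC1s -0.15 to 0.019. The library class for MLN was added after seeing the data. The replicate numbers were not taken as a pairing: deviations of same-numbered libraries correlated at r = -0.413 to 0.135 over 9 pairs in spleen, -0.0774 to 0.382 over 6 in MLN (0.0255 to 0.382 over 5 by the numbers in the library names) and -0.0372 to 0.0193 in ATAC. The T-bet+ and cDC1 pairs were all positive (0.0997 to 0.135 in spleen, 0.307 and 0.382 in MLN), a hint from the data. The replicate block is therefore reported here only. At 2 libraries a group, Tlr9 at 14 to 121 reads a library and splenic cDC1 Tlr7 and Tlr8 near 0 limit what fold changes can show.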
